A study of Mus musculus with 8 samples.

Results

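A set of 9 genes of neutrophils and other granulocytes, S100a8, S100a9, Mmp8, Il1r2, Il1b, Csf3r, Cxcr2, Ngp and Camp, was followed through mouse livers that carried an A20 or a control adenovirus, before and after a large resection. They are 9 of the 17790 genes read on the arrays, and all 9 passed the filter on low signal. Each was taken as every probe set annotated to its symbol, which gave 1 probe set per gene. The genes were chosen by values of these same arrays, S100a8 and S100a9 for a lower signal with A20 at both times. Their values in the comparisons between transgenes, and in resection within 1 transgene, are therefore a description and carry no p-value.

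The livers came from 8-week-old BALB/c mice that had received either rAd.A20, a recombinant adenovirus with full-length human A20, or rAd.βgal, the same kind of vector with β-galactosidase, by penile vein 5 days before surgery. The submitters give 30% to 40% of hepatocytes as expressing the transgene at that time, so every liver, controls included, had been exposed to adenovirus and no liver was free of vector. RNA of the lobes cut away at a 78% resection gave the groups pre-βgal and pre-A20. RNA of what remained of the liver 24 h later gave the groups post-βgal and post-A20. Each of the 4 groups has 2 arrays, and each array carries the pooled RNA of 3 mice. The p-values thus measure the spread between pools, which hides the spread between mice. The treatment text of both post-A20 samples repeats the βgal wording, while their titles, source names and descriptions name A20, and they were taken as post-A20. Because the array's probe sets are for mouse transcripts, the human A20 transgene itself was not measured.

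Neutrophils are short-lived white blood cells that leave the blood for injured or infected tissue within hours. They carry ready-made proteases and antimicrobial proteins in granules, and they are drawn to tissue by chemokines of the CXC family, which they sense through CXCR2. In the liver they gather in the sinusoids after resection, ischaemia or viral infection. A20, the product of Tnfaip3, is a ubiquitin-editing enzyme that restrains NF-κB, a factor that drives many chemokine and adhesion genes. The 9 genes cover several sides of this cell type. S100a8 and S100a9 encode the subunits of calprotectin, an abundant protein pair of neutrophil cytosol. Mmp8 encodes neutrophil collagenase, and Ngp and Camp encode granule proteins, Camp being the precursor of the antimicrobial peptide CRAMP. Csf3r and Cxcr2 are the receptors for G-CSF and for CXC chemokines. Il1b encodes the cytokine interleukin-1β, and Il1r2 encodes its decoy receptor, which binds the cytokine without signalling. Several of them are also made by monocytes and macrophages, and in whole liver RNA fewer cells of a type cannot be told apart from less RNA per cell.

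The signals are normalized intensities on a linear scale, and array medians lay between 153 and 166. A probe set has its own brightness, so a signal was compared between arrays for the same gene and never between genes. The table holds no detection calls, so whether a low and flat signal stands above background cannot be told from it. Differences are given as log2 of the signal plus 16, with the standard error from 1 limma model of all 8 arrays. On 2 arrays the RNA stood apart. The ratio of the 3′ to the 5′ probe set of β-actin, which climbs as RNA degrades, reached 6.997 on the first pre-βgal array (replicate 1) and 3.64 on the first post-βgal array (replicate 1), against 1.27 to 1.62 elsewhere. The GAPDH ratio was 3.44 and 1.48 on these arrays, against 0.975 to 1.16 on the other 6. The part of RNA integrity in the differences below was not tested, and the calls below were also made without both of these arrays.

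S100a8 and S100a9 lie close together on chromosome 3 (S100a8 at chr3:90669071-90670034, S100a9 at chr3:90692630-90695721, mouse build GRCm38.p6). They also had the most similar profiles of the 9 genes, and Mmp8, on chromosome 9 at chr9:7558429-7568486, had another profile. The 250 bases before the transcription start of these 3 genes are shown, from RefSeq on GRCm38.p6 and read along the gene's own strand, because factors of granulocyte development and of inflammation act through such sequence. The windows are chr3:90668821-90669070 on the plus strand, chr3:90695722-90695971 on the minus strand and chr9:7558179-7558428 on the plus strand. Capitals mark matches on either strand to TTNCNNAA, a loose form of the C/EBP motif, where N is any base.
S100a8: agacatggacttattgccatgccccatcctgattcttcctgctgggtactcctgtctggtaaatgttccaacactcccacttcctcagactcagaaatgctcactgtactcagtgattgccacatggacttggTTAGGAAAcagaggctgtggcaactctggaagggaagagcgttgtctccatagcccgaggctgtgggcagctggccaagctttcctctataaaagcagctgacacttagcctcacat
S100a9: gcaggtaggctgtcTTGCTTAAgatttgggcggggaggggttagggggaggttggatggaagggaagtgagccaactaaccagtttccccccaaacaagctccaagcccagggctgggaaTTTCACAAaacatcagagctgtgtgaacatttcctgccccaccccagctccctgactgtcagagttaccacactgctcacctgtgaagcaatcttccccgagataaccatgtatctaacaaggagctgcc
Mmp8: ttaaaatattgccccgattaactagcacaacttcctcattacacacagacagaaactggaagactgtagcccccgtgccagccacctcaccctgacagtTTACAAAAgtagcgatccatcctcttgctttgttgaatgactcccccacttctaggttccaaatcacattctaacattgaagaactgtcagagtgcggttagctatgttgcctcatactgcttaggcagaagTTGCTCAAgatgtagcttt
The S100a8 window holds 1 such match, from 117 to 110 bases before the start. The S100a9 window holds 2, from 236 to 229 and from 130 to 123 bases before it, and the Mmp8 window holds 2, from 151 to 144 and from 19 to 12. Of 27025 mouse promoter windows of this length, 36.9% hold at least 1 match to these letters. The letters GAGGAA, the core bound by PU.1 and related factors, occur at 2 places in the S100a8 window and at 1 in the Mmp8 window, and in 23.1% of all windows. The NF-κB letters, GGG and CC with any 5 bases between them, which 45.4% of all windows hold, do not occur in the 3 windows shown. The window of Cxcr2 holds 1 match to them and 1 to GAGGAA, the Camp window held none of the 3 motifs and the Ngp window 3 C/EBP matches. The RefSeq windows of Il1r2 and Csf3r lie inside the annotated gene, before another start, and that of Il1b overlaps its gene by 25 bases, so their letters are not described. A match to letters does not show that a factor binds there.

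The calprotectin genes were low in A20 livers at both times, and in both transgene groups they were higher after resection. S100a8 read 976 and 554 in pre-βgal, 1634 and 1837 in post-βgal, 151 and 173 in pre-A20, and 422 and 301 in post-A20. Every βgal array lay above every A20 array, and every post-resection array lay above every pre-resection array of its transgene. S100a9 read 1095 and 699 in pre-βgal, 1718 and 2159 in post-βgal, 114 and 140 in pre-A20, and 393 and 268 in post-A20. The order of the groups was that of S100a8, with post-βgal highest, then pre-βgal, post-A20 and pre-A20, and in neither gene did the arrays of neighbouring groups overlap. The A20 livers after resection thus read lower for both genes than the βgal livers before it.

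**Figure D1:**
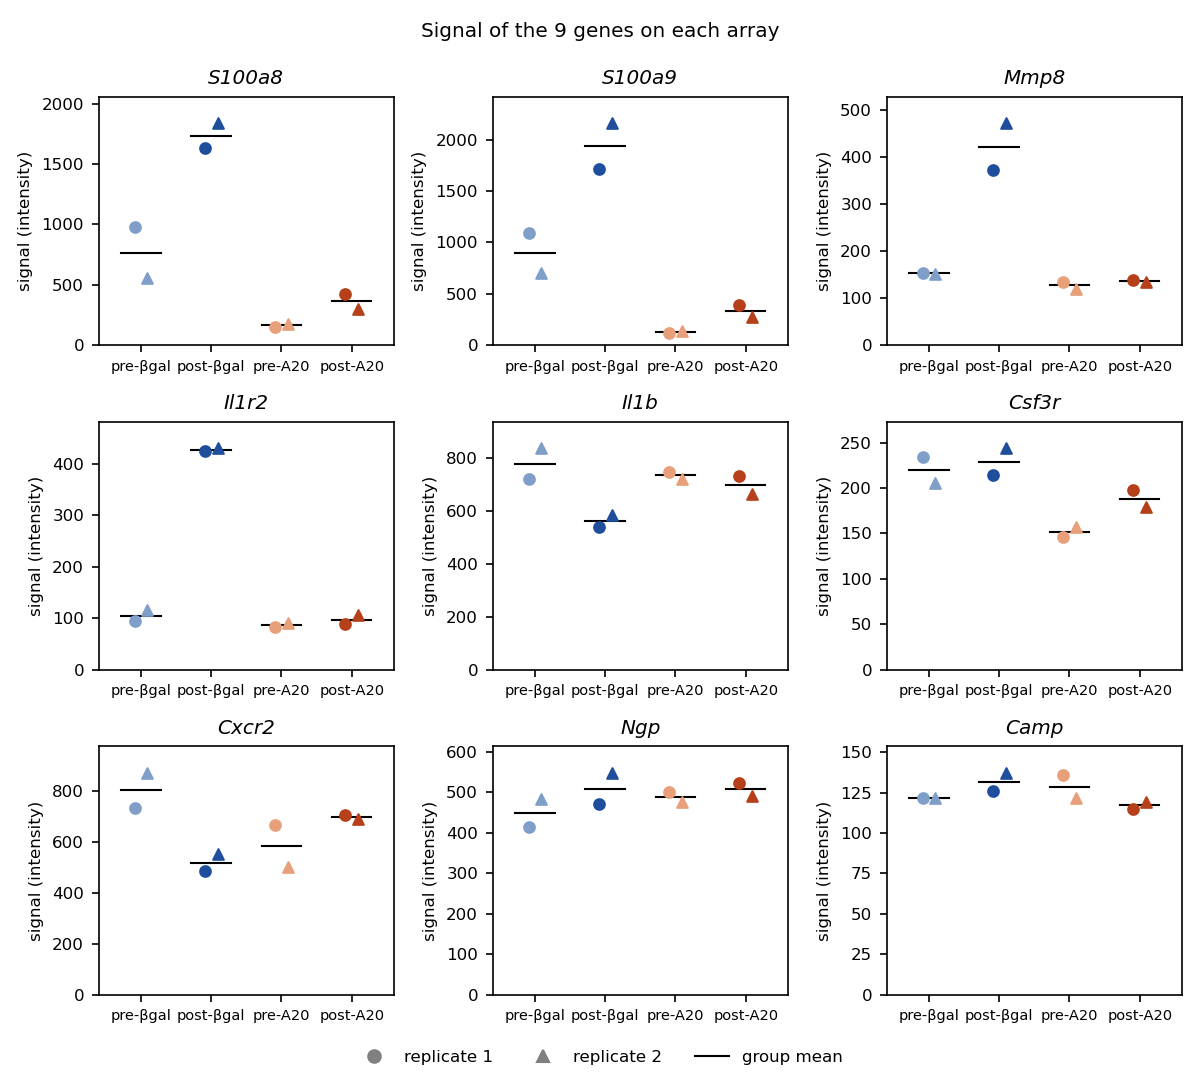
Signal (intensity, linear, vertical axis from 0) of each of the 9 genes on the 8 arrays, by group on the horizontal axis. Circles are replicate 1, triangles replicate 2 and lines the group mean of 2 arrays. S100a8 lies between 554 and 1837 on the βgal arrays and between 151 and 422 on the A20 arrays, Mmp8 and Il1r2 stand out in post-βgal alone, and Ngp and Camp stay within 414 to 547 and 115 to 137.

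In numbers, the mean S100a8 signal before resection was 765 ± 299 (SD, n = 2 arrays) with βgal and 162 ± 15.4 with A20, a ratio of 4.73 and a log2 difference of −2.08 ± 0.28 (SE). After resection the means were 1736 ± 143 and 361 ± 85.7, a ratio of 4.81 and a log2 difference of −2.23 ± 0.28. For S100a9 the means before resection were 897 ± 280 and 127 ± 18.4, a ratio of 7.08 and a log2 difference of −2.65 ± 0.27. After resection they were 1938 ± 312 and 331 ± 88.3, a ratio of 5.86 and a log2 difference of −2.51 ± 0.27. The difference read between the transgenes was thus of like size at both times for each gene. The pre-A20 signals of both genes lay near or below the array medians. Without detection calls, how far they stand above background is not known, and a larger difference before resection could go unseen. The pre-βgal replicate with the high 3′ to 5′ ratio had the higher signal of its pair for both genes. Without both βgal replicate 1 arrays, the log2 differences before and after resection were −1.68 and −2.32 for S100a8, and −2.33 and −2.67 for S100a9.

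Mmp8 and Il1r2 followed another course, with a high signal in post-βgal and low, close values in the other 3 groups. Mmp8 read 154 and 152 in pre-βgal, 372 and 472 in post-βgal, 134 and 120 in pre-A20, and 138 and 135 in post-A20. Il1r2 read 94.2 and 116 in pre-βgal, 426 and 431 in post-βgal, 84.2 and 90.045 in pre-A20, and 88.5 and 107 in post-A20. The post-βgal arrays of both genes lay far above all others, whereas the arrays of pre-βgal and post-A20 overlapped for Il1r2 and were near one another for Mmp8. The low signals of both genes lay near or below the array medians, and without detection calls a difference among them could go unseen. In βgal livers the signal after resection was 2.76 times that before for Mmp8 (log2 difference 1.37 ± 0.13) and 4.08 times for Il1r2 (1.88 ± 0.12). In A20 livers the corresponding log2 differences were 0.09 ± 0.13 and 0.14 ± 0.12, and the Il1r2 arrays before and after resection overlapped. Accordingly, A20 against βgal gave −0.24 ± 0.13 for Mmp8 and −0.23 ± 0.12 for Il1r2 before resection, and −1.52 ± 0.13 and −1.97 ± 0.12 after it. Without both βgal replicate 1 arrays, the differences after resection were −1.68 and −1.98.

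Il1b and the chemokine receptor Cxcr2 read lower after resection in the βgal livers. Il1b read 720 and 836 in pre-βgal, 538 and 585 in post-βgal, 748 and 718 in pre-A20, and 731 and 664 in post-A20. Its lowest signals were those of post-βgal, and the other 3 groups overlapped in a chain. The log2 difference of post-βgal from pre-βgal was −0.46 ± 0.15, and that of post-A20 from pre-A20 was −0.07 ± 0.15. Cxcr2 read 732 and 869 in pre-βgal, 483 and 550 in post-βgal, 667 and 500 in pre-A20, and 706 and 689 in post-A20. In βgal livers both arrays after resection lay below both before it (log2 difference −0.61 ± 0.19), and in A20 livers both lay above (0.27 ± 0.19). A20 against βgal was −0.45 ± 0.19 before and 0.42 ± 0.19 after resection for Cxcr2, and −0.08 ± 0.15 and 0.30 ± 0.15 for Il1b. The highest group mean and the highest single array of both genes were thus in pre-βgal, where calprotectin was intermediate. For Il1b the pre-βgal arrays overlapped those of both A20 groups.

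Csf3r, the G-CSF receptor through which granulocyte output is set, resembled calprotectin in its direction but not in its size. It read 234 and 205 in pre-βgal, 214 and 244 in post-βgal, 146 and 157 in pre-A20, and 198 and 179 in post-A20. All 4 βgal arrays lay above all 4 A20 arrays, the log2 difference being −0.49 ± 0.12 before and −0.26 ± 0.12 after resection. The βgal arrays before and after resection overlapped (0.06 ± 0.12), while in A20 livers both arrays after resection lay above both before it (0.29 ± 0.12).

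Ngp and Camp, genes that are transcribed mainly in granulocyte precursors of the bone marrow, read nearly level across the groups. Ngp read 414 and 483 in pre-βgal, 470 and 547 in post-βgal, 501 and 476 in pre-A20, and 523 and 490 in post-A20, and the arrays of neighbouring groups overlapped throughout. Camp read 121 on both arrays of pre-βgal, 126 and 137 in post-βgal, 136 and 122 in pre-A20, and 115 and 119 in post-A20. The largest log2 difference of these genes in a comparison of 2 groups was 0.18 ± 0.15 for Ngp, in βgal livers with resection, and −0.15 ± 0.09 for Camp, with A20 after resection. Camp lay below the array medians, where a weak signal and none cannot be separated without detection calls. Ngp lay above them, but without such calls its standing above background is not known either.

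**Figure D2:**
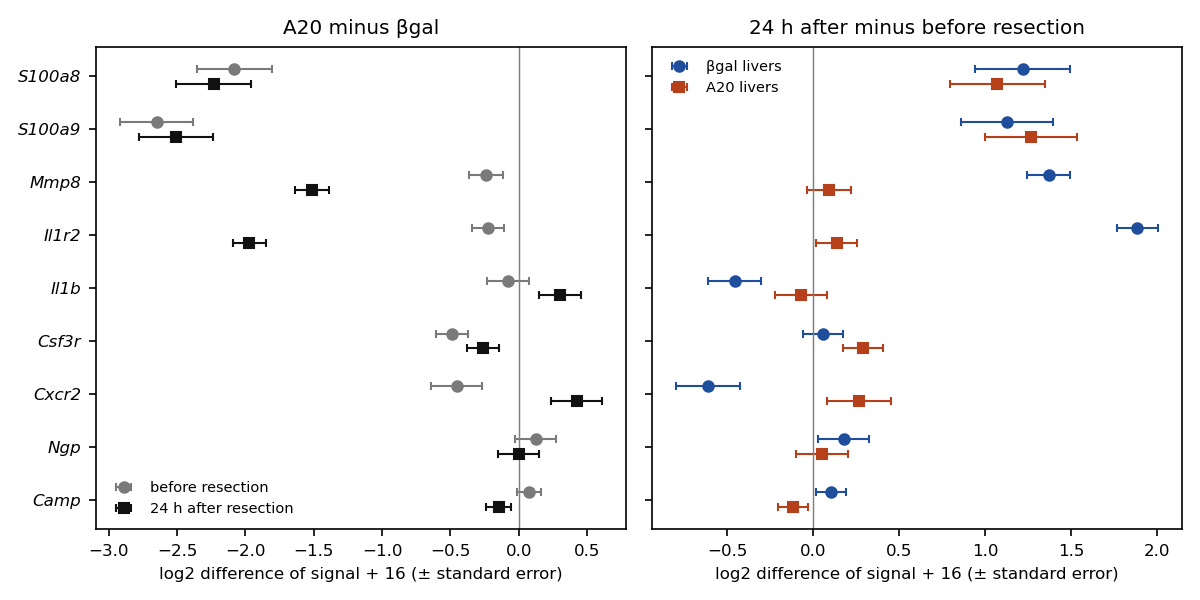
Log2 difference of signal plus 16 (horizontal axis) for the 9 genes (vertical axis), with standard errors of the limma model as bars and 2 arrays per group. Left, A20 minus βgal before and 24 h after resection, right, after minus before resection in βgal and in A20 livers. S100a8 and S100a9 lie between −2.08 and −2.65 on the left, and Mmp8 and Il1r2 lie at −1.52 and −1.97 after resection on the left, at 1.37 and 1.88 in βgal livers on the right, and near 0 otherwise.

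The 9 genes therefore did not behave as 1 group. Before resection 7 of the 9 log2 differences of A20 from βgal were below 0, with a median of −0.24, and after it 7 of 9 with a median of −0.26. Over all 17790 genes the medians were −0.03 and 0.03. With 2 arrays against 2, groups often do not overlap. The A20 arrays lay wholly below the βgal arrays for 6 of the 9 before resection (29.3% of all genes) and for 6 after it (26.4%), and wholly above for 1 (22.1%) and 2 (33.7%). The arrays after resection lay wholly above those before it for 5 of the 9 in βgal livers (20.4%) and 5 in A20 livers (29.4%), and wholly below for 2 (33%) and 1 (22.3%). Over both times, all 4 A20 arrays lay below all 4 βgal arrays for S100a8, S100a9, Mmp8 and Csf3r, 4 of the 9 (5.26% of all genes), and above them for none (5.7%). The choice of the genes used these contrasts, so nothing is read from these counts. Across the 8 arrays, which share their preparation and the same design, the log2 signals of S100a8 and S100a9 had a Pearson correlation of 0.996 and those of Mmp8 and Il1r2 of 0.983. Between the pairs the correlations were 0.782 to 0.849. Csf3r correlated with S100a9 at 0.955, Il1b with Cxcr2 at 0.769 and with Il1r2 at −0.852, and Ngp and Camp at 0.344.

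The effect of resection averaged over both transgenes was tested, with p adjusted by Benjamini-Hochberg over all 17790 genes. Its size is independent of that of the averaged transgene difference, but both use the same estimate of each gene's spread. A choice of genes by the transgene difference can therefore still bear on these p-values. What led to the choice of the 7 genes other than S100a8 and S100a9 is not recorded, so for Mmp8 and Il1r2 the test may rest on values that the choice had used. S100a8, S100a9, Mmp8 and Il1r2 rose, and none of the 9 fell. Of all genes, 2.83% rose and 1.93% fell. For none of the 9 did all arrays after resection lie above, or all below, all arrays before it (4.5% and 3.99% of all genes). S100a8 rose by a log2 difference of 1.14 ± 0.19 (limma, adjusted p = 0.0189) and S100a9 by 1.19 ± 0.19 (limma, adjusted p = 0.0150), both with the arrays after resection above those before it in each transgene. Mmp8 rose by 0.73 ± 0.09 (limma, adjusted p = 0.00670) and Il1r2 by 1.01 ± 0.08 (limma, adjusted p = 0.00177), but here the average of both transgenes holds a large difference in βgal livers and one near 0 in A20 livers. Il1b (−0.26 ± 0.11, limma, adjusted p = 0.219), Csf3r (0.17 ± 0.08, 0.288), Cxcr2 (−0.17 ± 0.13, 0.501), Ngp (0.11 ± 0.11, 0.600) and Camp (−0.01 ± 0.06, 0.965) did not pass.

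The calls of S100a8 and S100a9 with resection depended on single arrays, while their sizes varied less. Leaving out each of the 8 arrays in turn, the S100a8 difference lay between 0.94 and 1.34, and its adjusted p (limma) missed 0.05 in 6 fits, at 0.0560 to 0.0868, namely without any 1 of the post-βgal, pre-A20 or post-A20 arrays. The S100a9 difference lay between 1.04 and 1.35 and missed it in 4 fits, at 0.0577 to 0.0732, without post-βgal replicate 2, either pre-A20 array or post-A20 replicate 1. A group left with 1 array is assumed in such fits to vary like the others. Mmp8 and Il1r2 passed in all 8. Without both βgal replicate 1 arrays all 4 still passed, with differences of 1.38, 1.43, 0.82 and 0.95.

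Whether A20 altered the response to resection is the interaction of both factors. No gene of the 17790 passed it in limma (2788, or 15.7%, had an unadjusted p under 0.05). The 9 genes are among these 17790 and did not pass either. Because values of these arrays led to their choice, their interaction is given as a description. It was −1.28 ± 0.18 for Mmp8 and −1.75 ± 0.17 for Il1r2, the log2 difference with resection being smaller with A20, and it was −0.15 ± 0.39 for S100a8 and 0.14 ± 0.38 for S100a9, below its standard error. Cxcr2 had 0.88 ± 0.26 and Camp −0.22 ± 0.13, and the arrays of each moved without overlap one way with βgal and the other way with A20, as they did for 11% of all genes.

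Other genes of neutrophils were read from 4 lists. They held granule proteins, surface receptors, other cytosolic or secreted proteins and NADPH oxidase, the enzyme complex of the oxidative burst. Several listed genes, among them Lcn2, Fcgr4, Pirb and those of NADPH oxidase, are also made by other cells. The counts below are thus not of neutrophils alone. The lists were written from general knowledge but with earlier results of these data known. Their counts are therefore no independent check on the 9 genes. Of 65 genes listed beside the 9 above, 52 could be read. Among the 13 not read here are Ly6g, Fpr1, Cxcr1 and Retnlg, so these neutrophil markers give no value. Other genes of the lists were read and passed in no comparison. Among them are Cd177 (73.5 to 94.4 on the 8 arrays), Mmp9 (304 to 415), Itgb2l (256 to 298), Trem1 (300 to 378) and Padi4 (110 to 137). Whether such flat signals stand above background cannot be told without detection calls. Averaged over both times, 16 of the 52 were lower with A20 and none higher (limma, adjusted p under 0.05), against 3.31% lower and 2.08% higher of all genes. Their median log2 difference was −0.35, against −0.0014 for all genes, and 40 of the 52 were below 0. The average takes arrays before and after resection as independent. Whether their pools share mice is not stated, and if they do, its p-values may be too small. By time alone, 3 of the 52 were lower before resection (1.78% of all genes) and 2 after it (0.236%), and none was higher (0.714% and 0.0956% of all genes). These counts moved with single arrays. The 16 became 0 without post-βgal replicate 2 or post-A20 replicate 2, 1 without pre-A20 replicate 2, and 2 without post-βgal replicate 1, pre-A20 replicate 1 or post-A20 replicate 1. The 3 became 0 without pre-βgal replicate 1, 10 without pre-βgal replicate 2 and 1 without any 1 of the other 6 arrays, and the 2 became 7 without either pre-βgal array and 0 without any 1 of the other 6. Without both βgal replicate 1 arrays the 16, 3 and 2 changed as well, and in part other genes were counted. Pirb and Alox5ap, the 2 lower after resection, then lost their calls, at log2 differences of −0.94 and −0.95. The counts by time also moved with the model. With the replicate number within transgene as a block, 14 were lower and 1 higher before resection and 11 were lower after it, and with the log2 β-actin ratio of each array as a covariate 11 and 8 were lower.

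Among the granule proteins, 3 of 16 were lower with A20 on average. Lcn2, lipocalin-2, which hepatocytes also make in the acute phase, read 2622 and 2871 in pre-βgal, 13762 and 14005 in post-βgal, 209 and 493 in pre-A20, and 11810 and 14157 in post-A20. Before resection it was lower with A20 by a log2 difference of −3.03 ± 0.34 (limma, adjusted p = 0.0189), and after resection the arrays of both transgenes overlapped. It rose with resection by 2.33 ± 0.34 in βgal livers (limma, adjusted p = 0.0211) and by 5.26 ± 0.34 in A20 livers (limma, adjusted p = 0.00234). The Lcn2 signal thus reached the same range in both, unlike S100a8 and S100a9. Whether a signal this bright still follows the amount of transcript was not tested. Anxa3 (−0.41 ± 0.09) and Pglyrp1 (−0.38 ± 0.08) were the others that passed on average. Leaving out both βgal replicate 1 arrays, the Lcn2 call in βgal livers (limma, adjusted p = 0.108) and those of Anxa3 (0.128) and Pglyrp1 (0.119) were lost, and the other calls of Lcn2 named here were kept. The azurophil granule genes Elane, Mpo and Ctsg and the specific granule gene Ltf did not pass in any comparison of 2 groups, with Elane between 309 and 376 on all 8 arrays.

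Of 19 surface receptors, 5 were lower with A20 on average, Csf2rb2 (−0.82 ± 0.11), Pirb (−0.55 ± 0.08), Fcgr4 (−0.79 ± 0.12), Fpr2 (−0.83 ± 0.18) and the β2 integrin chain Itgb2 (−0.78 ± 0.16). Fcgr4, an activating receptor for IgG on neutrophils and monocytes, read 625 and 720 in pre-βgal against 318 and 354 in pre-A20 and passed before resection (−0.97 ± 0.17, limma, adjusted p = 0.0396). Pirb, an inhibitory receptor of myeloid cells, had the course of Mmp8, with 190 and 207 in post-βgal and 88.9 to 116 on the other 6 arrays. It was lower with A20 after resection (−0.89 ± 0.11, limma, adjusted p = 0.0298) and rose with resection in βgal livers (0.70 ± 0.11, limma, adjusted p = 0.0280). Csf2rb2, a signalling chain for interleukin-3, also rose there (0.92 ± 0.15, limma, adjusted p = 0.0307). Leaving out both βgal replicate 1 arrays, Fpr2 no longer passed on average (limma, adjusted p = 0.0583), Fcgr4 no longer before resection (0.0805), and Pirb neither after resection (0.0586) nor with resection in βgal livers (0.120).

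Of 12 cytosolic or secreted proteins, 5 were lower with A20 on average, Alox5ap, Slfn4, Mcemp1, Slpi and Stfa2l1. Alox5ap, which presents arachidonic acid to 5-lipoxygenase for leukotriene synthesis, read 243 and 235 in pre-βgal, 512 and 536 in post-βgal, 160 and 194 in pre-A20, and 270 and 268 in post-A20. It was lower with A20 after resection (−0.92 ± 0.12, limma, adjusted p = 0.0365) and rose in βgal livers (1.08 ± 0.12, limma, adjusted p = 0.0127). Slfn4 had an average log2 difference of −1.40 ± 0.20 (limma, adjusted p = 0.0180). Acod1, which makes itaconate, was lower before resection (−1.37 ± 0.27, limma, adjusted p = 0.0492). Of 5 NADPH oxidase genes, Cybb (−1.17 ± 0.23), Cyba (−0.90 ± 0.17) and Ncf4 (−0.99 ± 0.13) were lower with A20 on average, and Ncf1 and Rac2 did not pass. Leaving out both βgal replicate 1 arrays, Mcemp1, Slpi, Stfa2l1 and Cyba no longer passed on average (limma, adjusted p = 0.0535, 0.0836, 0.108 and 0.0840), nor did Acod1 before resection (0.0896) or Alox5ap after resection (0.0704) and in βgal livers (0.0550). These subunits are shared by neutrophils and macrophages.

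**Figure D3:**
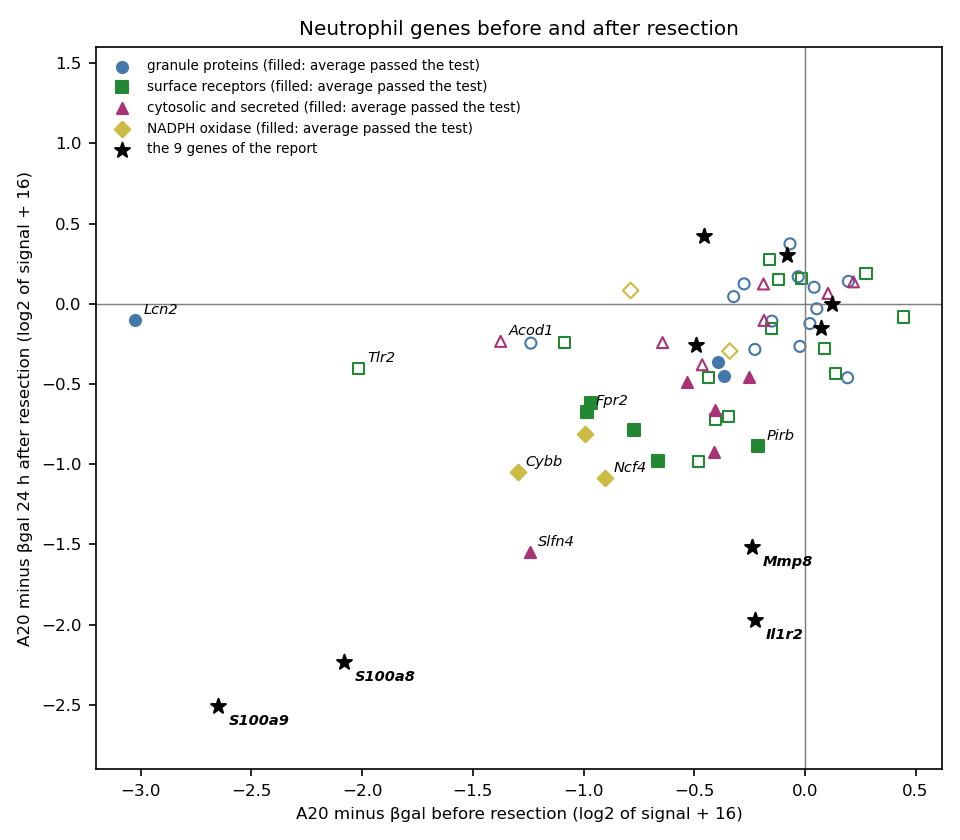
Log2 difference of A20 minus βgal before resection (horizontal axis) and 24 h after it (vertical axis) for the 52 other neutrophil genes in 4 lists and for the 9 genes (stars). Filled symbols of the lists passed limma at an adjusted p under 0.05 in the average of both times, 16 of 52, and all of them lie below 0 on both axes. S100a8 and S100a9 lie at the lower left, Lcn2 is low before resection alone, and Mmp8 and Il1r2 are low after it.

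With resection averaged over both transgenes, 7 of the 52 rose and none fell, against 2.83% and 1.93% of all genes. They were Lcn2 (3.79 ± 0.24), Alox5ap (0.83 ± 0.09), Csf2rb2 (0.76 ± 0.11), Slpi (0.63 ± 0.11), Anxa3 (0.63 ± 0.09), Prtn3 (0.51 ± 0.11) and Pirb (0.37 ± 0.08). In βgal livers alone 5 of 52 rose (1.5% of all genes) and in A20 livers 1, Lcn2 (0.63% of all genes), and none fell (0.748% and 0.382% of all genes). The counts again moved with single arrays. The 5 became 0 without either post-βgal array, 3 without either pre-A20 array and 2 without either post-A20 array. The 7 became 3 without post-βgal replicate 2, pre-A20 replicate 1 or post-A20 replicate 2, and 4 without pre-A20 replicate 2 or post-A20 replicate 1. With both βgal replicate 1 arrays left out, the 5 became 2, of which Csf2rb2 was among the 5, and Slpi, Prtn3 and Pirb lost their calls on average. With the block within transgene 9 rose and 1 fell in βgal livers, 3 rose and 1 fell in A20 livers and 11 rose on average, and with the β-actin covariate 11 rose and 1 fell, 6 rose, and 12 rose.

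The chemokines and adhesion molecules that bring neutrophils into tissue gave 14 genes. Cxcl1 and Cxcl2, ligands of CXCR2, were lower with A20 before resection. Cxcl1 read 5059 and 3123 in pre-βgal, 2902 and 3317 in post-βgal, 843 and 1082 in pre-A20, and 3255 and 1709 in post-A20 (before resection −2.04 ± 0.34, limma, adjusted p = 0.0365). Cxcl2 read 297 and 125, 158 and 338, 35.7 and 31.7, and 73.5 and 61.2 in the same order (before resection −2.08 ± 0.40, limma, adjusted p = 0.0481). Cxcl3 rose with resection in βgal livers (1.84 ± 0.36, limma, adjusted p = 0.0467). On average over both times Cxcl1 (−1.22 ± 0.24), Cxcl2 (−1.83 ± 0.29) and the endothelial adhesion molecule Icam1 (−1.57 ± 0.36) were lower with A20, and the other 11, among them Sele, Selp and Vcam1, did not pass. None was higher with A20. In the fit without both βgal replicate 1 arrays, Cxcl2 still passed before resection (−1.50 ± 0.13, limma, adjusted p = 0.0237) and on average, as did Icam1 on average (−1.44 ± 0.26, limma, adjusted p = 0.0448) and Cxcl3 in βgal livers. Cxcl1 then missed the threshold before resection (−1.69 ± 0.37, limma, adjusted p = 0.0992) and on average (−1.09 ± 0.26, limma, adjusted p = 0.0796).

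Of 18 further genes of the interleukin-1 system, none passed with A20 in either direction, before or after resection. Il1r1, the signalling receptor for which Il1r2 is the decoy, read 314 and 490 in pre-βgal, 1298 and 1481 in post-βgal, 487 and 476 in pre-A20, and 715 and 1178 in post-A20. It rose with resection in βgal livers (1.78 ± 0.28, limma, adjusted p = 0.0273) and on average (1.34 ± 0.20, limma, adjusted p = 0.0123), so both receptors were higher in post-βgal than in pre-βgal. Il33, an alarmin of the family, rose in βgal livers (1.55 ± 0.31, limma, adjusted p = 0.0490). Leaving out both βgal replicate 1 arrays, the calls of Il1r1 and Il33 in βgal livers were lost (limma, adjusted p = 0.107 and 0.0869), and that of Il1r1 on average was kept. Il1rn, the receptor antagonist, and Il1a did not pass.

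Among 8 factors of granulocyte development, Spi1, which encodes PU.1, read 324 and 257 in pre-βgal, 333 and 340 in post-βgal, 170 and 174 in pre-A20, and 249 and 214 in post-A20. It was lower with A20 before resection (−0.70 ± 0.14, limma, adjusted p = 0.0490) and on average over both times (−0.61 ± 0.10, limma, adjusted p = 0.0222). With resection on average, Cebpd rose (1.02 ± 0.22, limma, adjusted p = 0.0436) and Cebpa, which hepatocytes also use, fell (−1.20 ± 0.19, limma, adjusted p = 0.0145). Of 12 other genes with S100 in their symbol, all but S100pbp encode calcium-binding proteins related to calprotectin. Among the 12, S100a6 was lower with A20 before resection (−1.09 ± 0.18, limma, adjusted p = 0.0364) and on average (−0.91 ± 0.13, limma, adjusted p = 0.0180). S100g was lower on average (−0.39 ± 0.08, limma, adjusted p = 0.0428), and S100a10 rose with resection on average (0.91 ± 0.19, limma, adjusted p = 0.0384). The remaining 9 did not pass in these comparisons. When both βgal replicate 1 arrays were left out, Spi1 and S100a6 no longer passed before resection (log2 differences −0.54 and −0.80). Nor did Spi1 and S100g pass on average with A20 in that fit (−0.53 and −0.37).

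Markers of the other blood and liver cells were set beside these values, as sums of signal over each list. No listed gene was at 0 on any array. The 12 Kupffer cell and macrophage genes summed to 10741 to 10774 in pre-βgal, 8507 to 10932 in post-βgal, 6238 to 6663 in pre-A20, and 9408 to 10363 in post-A20. The sum was thus lower with A20 before resection and in the same range in both transgene groups after it, unlike S100a8 and S100a9. Before resection the pre-A20 arrays lay wholly below the pre-βgal arrays for 9 of the 12 (29.3% of all genes) and wholly above for 1, Marco (22.1%), and Csf1r, the receptor of the macrophage growth factor, passed (−0.93 ± 0.18, limma, adjusted p = 0.0481). On average over both times Cd68 was lower with A20 (−0.55 ± 0.13, limma, adjusted p = 0.0498) and Marco, a scavenger receptor of macrophages, was higher (0.46 ± 0.10, limma, adjusted p = 0.0469). The 7 pan-leukocyte genes summed to 4161 to 4177, 3255 to 4158, 2896 to 3176, and 2739 to 4060 in the same order, and 1 of them, Coro1a, was lower with A20 on average (−1.26 ± 0.21, limma, adjusted p = 0.0249). The 6 monocyte genes summed to 6268 to 7171 and 5569 to 7144 before resection, and to 9126 to 9243 and 9955 to 11636 after it, with βgal first. Most of that sum is Fn1, fibronectin, which hepatocytes also make. F13a1, a coagulation factor subunit of monocytes and macrophages, read 139 and 134 in pre-βgal, 208 and 289 in post-βgal, 94.7 and 107 in pre-A20, and 133 and 126 in post-A20. It was lower with A20 on average (−0.62 ± 0.10, limma, adjusted p = 0.0246) and rose with resection in βgal livers (0.78 ± 0.14, limma, adjusted p = 0.0417).

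The 5 platelet genes summed to 1542 to 1609 in pre-βgal, 1738 to 1859 in post-βgal, 1408 to 1426 in pre-A20, and 1274 to 1385 in post-A20, and Pf4 was lower with A20 after resection (−1.26 ± 0.16, limma, adjusted p = 0.0314). The 8 T and NK cell genes summed to 2233 to 2863 over all arrays, and the 4 B cell genes to 789 to 919, with no call between transgenes in either list. The 7 eosinophil, basophil and mast cell genes lay between 705 and 912 with none called between transgenes, and the 4 erythroid genes that were read lay between 1237 and 4361, highest in pre-A20. The 9 hepatocyte genes, led by Alb, summed to 89675 to 113152, with Apob higher with A20 on average (1.37 ± 0.21, limma, adjusted p = 0.0202). Alb itself read 18087 to 19358 on the 8 arrays. With resection on average, Cd68, Fn1, F13a1, Cd79b and Apob rose and Cx3cr1, Cd79a and Ms4a2 fell, Cd79b and Pf4 also rose in βgal livers, and Ms4a2 fell in A20 livers. Leaving out both βgal replicate 1 arrays, Csf1r before resection (limma, adjusted p = 0.109), Pf4 after it (0.0639), and Marco (0.0742) and Apob (0.0522) on average no longer passed, nor did Cd79b and Pf4 in βgal livers or Fn1 and Apob with resection on average. Over all the lists other than the 9 genes, each call kept its direction in that fit, and 2 of 8 calls between transgenes before resection, 0 of 3 after it and 15 of 28 on average were kept, as were 3 of 11 with resection in βgal livers, 2 of 2 in A20 livers and 14 of 19 on average. The part of these cell types in the values of the 9 genes was not tested.

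**Figure D4:**
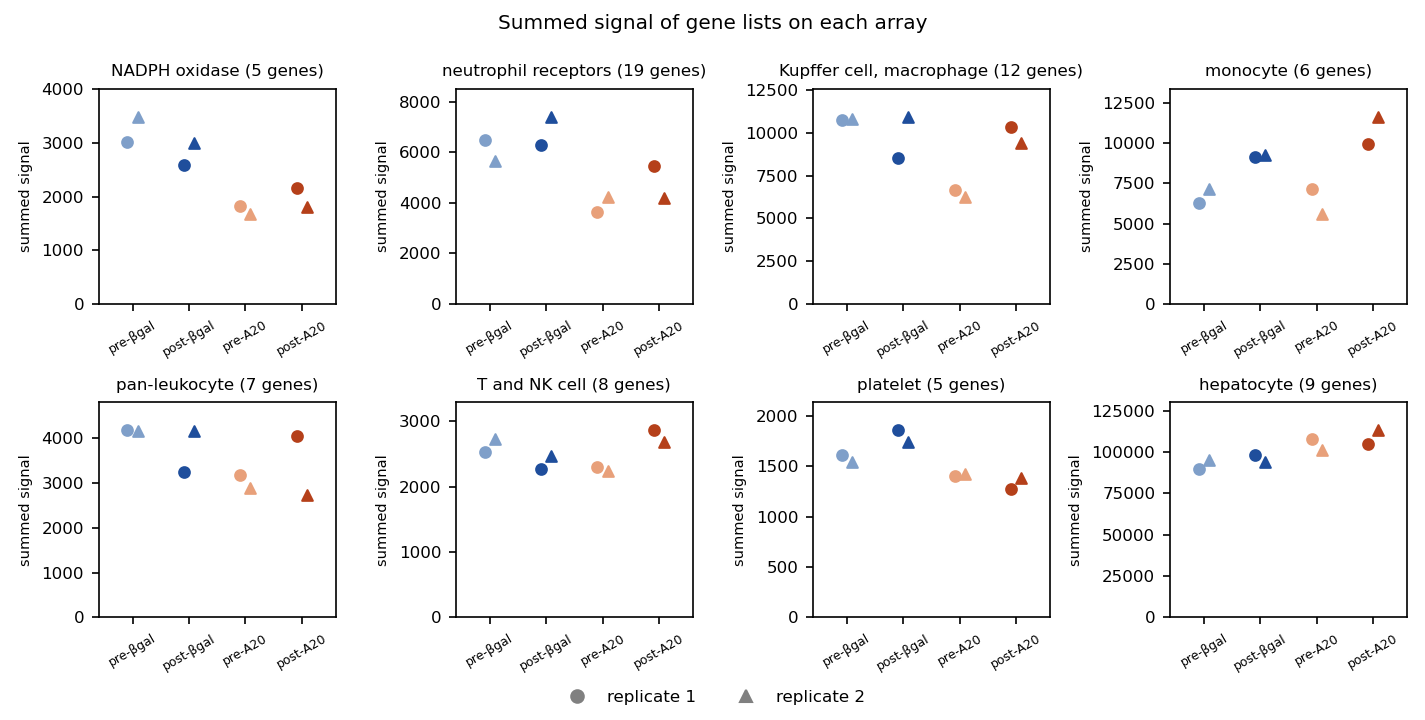
Summed signal (intensity, vertical axis from 0) of 8 gene lists on each of the 8 arrays, by group on the horizontal axis, with circles for replicate 1 and triangles for replicate 2. The Kupffer cell sum is lowest in pre-A20 (6238 to 6663) and within 8507 to 10932 in both groups after resection, while the NADPH oxidase sum is 2588 to 3489 on the βgal arrays and 1685 to 2153 on the A20 arrays.

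The genes most like S100a8 and S100a9 were sought among all 17790 by the correlation of log2 signal over the 8 arrays, which ranks likeness and, with so few arrays of shared design, tests nothing. S100a9 ranked first for S100a8 and S100a8 first for S100a9. The next 5 for S100a8 were Ash2l (0.993), Gemin8 (0.989), Ncf4 (0.989), Tceal9 (0.987) and Spi1 (0.983), and for S100a9 they were Tceal9 (0.988), Ash2l (0.988), Raph1 (0.986), Spi1 (0.985) and Ncf4 (0.985). Of these, Ncf4, a subunit of the NADPH oxidase, and Spi1 are genes of myeloid cells. They had the order of the groups of S100a8 with a smaller range, Ncf4 reading 343 and 259 in pre-βgal, 434 and 447 in post-βgal, 138 and 168 in pre-A20, and 232 and 170 in post-A20. Among the other genes described here, Csf3r ranked at place 122 for S100a8 and 41 for S100a9, Mmp8 at 716 and 865, Il1r2 at 1053 and 1214, and Il1b, Cxcr2, Ngp and Camp had ranks from 6729 to 14963.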

How the data were processed

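Liver RNA was hybridised to Affymetrix mouse arrays, 8 arrays in 4 groups of 2, each with a pool of 3 mice. The authors deposited normalized intensities, linear in scale, for 45101 probe sets. Their methods name dChip (invariant set normalization, perfect-match probes), whereas MAS5 stands in the sample records. Which program made the table is not stated in these sources. Symbols came from the platform annotation (34945 probe sets with 1 symbol, 932 with several, 9160 with none). A filter kept the 42703 probe sets whose mean reached 40 in any group, 16 was added before the log2, and a gene was read through its brightest probe set (17790 genes). Groups were compared in limma 3.58.1 (R 4.3.3) with 1 mean per group, variances moderated over all probe sets kept with a trend on intensity, and Benjamini-Hochberg adjustment over genes. The number of arrays limits the precision. The script was tested on simulated data. The 9 genes and all gene lists were chosen with earlier results of these data known. Named genes are the 9, per list the genes that passed (up to 4 of smallest p a comparison in detail; markers by brightness), and the 5 of highest correlation with S100a8 and S100a9. Other list genes, and those named as not passing, were picked after their values were seen. Alternatives were other offsets, filters, scalings, variance models, probe set rules, call rules, replicate blocks, fits of the compared arrays alone, arrays left out and an RNA integrity covariate. The variance model over 1 probe set per gene and the A20 counts averaged over both times were added after the data were seen. Promoter windows came from RefSeq (GRCm38.p6), and 6 of the 9 windows lay outside the annotated gene.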

Additional observations from a re-analysis of the deposited data

Results flagged for a closer look

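Cxcr2 moved in opposite directions with resection in the 2 transgene groups, with both post-βgal arrays below both pre-βgal arrays and both post-A20 arrays above both pre-A20 arrays. The log2 change with A20 minus that with βgal was 0.8793. Camp did so the other way round, with −0.2217, on signals that stayed between 115 and 137. No gene passed the interaction in limma, these 2 included, so the values are a description. The same pattern without overlap was found for 1956 genes, or 11% of all. Leaving out pre-A20 replicate 2 brought the Cxcr2 change in A20 livers from 0.27 to 0.06, and leaving out pre-A20 replicate 1 brought it to 0.47.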

How the results depend on the processing

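The 9 genes gave 1224 values under other settings, of which 1175 stayed within the array spread and on the same side of the threshold, 39 moved by more, 10 lost the call and none of the called values turned its direction. The differences of S100a8 and S100a9 between A20 and βgal were below 0 in all 92 fits before and after resection. The 4 calls with resection became 2 to 4 with 1 array left out. For the other neutrophil genes, leaving out 1 array gave 0 to 10 lower with A20 before resection, 0 to 7 after it and 0 to 20 on average, and 0 to 5 higher with resection in βgal livers and 3 to 8 on average. The same counts were 3, 2, 16, 5 and 7 over all arrays, and a fit with fewer arrays has fewer degrees of freedom. Without both βgal replicate 1 arrays, 1 was lower before resection and 2 rose in βgal livers. With the RNA integrity covariate, 11 were lower before and 8 after resection, 11 rose and 1 fell in βgal livers, 6 rose in A20 livers and 12 on average. With the mean of a gene's probe sets, and with variances moderated over 1 probe set per gene, 7 were lower before and 5 after resection. Fits of only the arrays compared gave 0 before, 6 after and 1 rise in βgal livers. The 90% interval criterion of 1.5-fold gave 7 before, 5 after and 5 on average lower with A20, and 3 in βgal livers and 2 on average higher with resection. With no variance trend, 2 rose in A20 livers. The cause of these changes was not tested.

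Whether same-numbered arrays before and after resection hold the same mice is not stated in the sources used here, and the numbers were not treated as pairs. If they do, the p-values of A20 against βgal averaged over both times may be too small. Same-numbered arrays had deviations that correlated at 0.617 between pre-βgal and post-βgal and at −0.145 to 0.156 between the other groups. Replicate 1 of pre-βgal and of post-βgal are also the arrays with high β-actin 3′ to 5′ ratios, 6.997 and 3.64. The part of RNA integrity in this correlation, and in the counts with a block within transgene, was not tested. A replicate block over all arrays changed no count by more than 1.5 times. A replicate block within transgene gave 14 lower and 1 higher with A20 before resection, 11 lower after it and 1 higher on average, 9 rises and 1 fall with resection in βgal livers, 3 rises and 1 fall in A20 livers, and 11 higher on average. It left the 4 calls of the 9 genes as they were.

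With 2 arrays per group and pooled mice, differences of single mice are not seen, and the median shift between groups was at most 0.05 on the log2 scale under every scaling. Dim probe sets such as that of Camp give no sign of whether a transcript is present.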
